A study of Mus musculus with 7 samples.

Results

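The MiT transcription factors and the folliculin arm of nutrient sensing were followed in mouse liver endothelial cells without Maf. The 10 genes were taken by name from the 52636 genes of the deposited count table, and each matched 1 row: the MiT factor genes Tfec, Tfeb, Tfe3 and Mitf, the folliculin gene Flcn, its partners Fnip1 and Fnip2, the Rag GTPase genes Rragc and Rragd, and Gpnmb. Polyadenylated RNA of sorted liver endothelium was counted in 4 Maf KO libraries (KO 1 to 4) and 3 control libraries, with 24772716 to 32960007 counts each. The labels give the genotype as a c-Maf knockout or control. The sources used here state no allele, Cre driver, strain, age or pooling of animals, and the labels do not say that libraries came from separate animals, so p-values measure the spread between libraries, which may be technical.

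MiT factors are basic helix-loop-helix leucine zipper proteins that bind DNA as dimers with one another, at CACGTG-type sequences in the promoters of genes of lysosomes and autophagy, a set known as the CLEAR network. When amino acids are plentiful, folliculin with a FNIP partner acts on RagC or RagD at the lysosome surface, which lets mTORC1 phosphorylate TFEB and TFE3 and keep them in the cytoplasm. When nutrients run low the factors enter the nucleus. In studies of other cells Flcn, Rragc, Rragd, Fnip2 and Gpnmb are themselves known as genes that MiT factors activate. Sinusoidal endothelium is a scavenger endothelium with a large lysosomal load.

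Transcripts of Flcn, Fnip1, Fnip2, Rragc, Rragd, Tfec, Tfe3 and Tfeb were lower in Maf KO endothelium. Of the 10 genes 8 fell, 0 rose and 2, Mitf and Gpnmb, did not pass the test (edgeR's quasi-likelihood test over all genes with Benjamini-Hochberg adjustment at 0.05, used throughout). Of all 15512 genes tested 22.2% fell, 23.0% rose and 45.2% changed in either direction. The 10 genes and the lists further below were chosen with earlier results of these data known, so such contrasts are descriptions. The libraries of both groups did not overlap in 8 of the 10 genes, against 50.3% of all genes tested. All 10 passed the filter on low counts, but Rragd only through its control libraries, and without it 7 of 9 fell. Rragd is also counted among the 8 genes without overlap and in the median that follows. The median log2 fold change of the 10 was -0.823, beside 0.0433 for all genes tested. Without KO 1 and KO 4, the KO libraries highest in hepatocyte markers, 7 fell, and without KO 1 and KO 2, those highest in dissociation stress genes, 8 fell. Across all genes 3561 rose and 3448 fell, which became 4749 and 2738 with upper-quartile factors and 6373 and 1976 with library totals. With library totals the median of all genes moved to 0.308 and that of the 10 to -0.56. In bulk RNA, fewer cells of a type and less RNA per cell cannot be told apart.

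**Figure D1:**
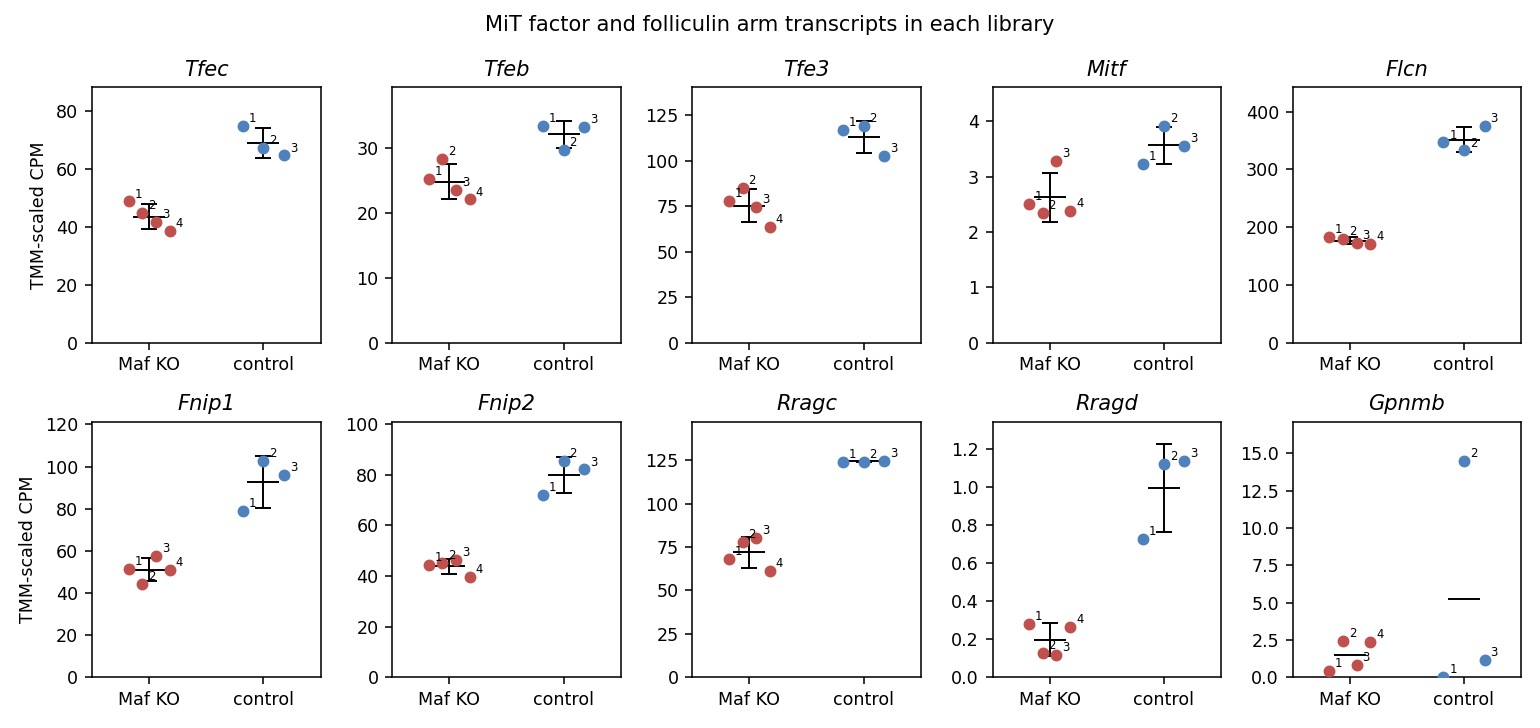
Read counts scaled to a common library total by TMM factors (CPM, vertical axis from 0) of the 10 genes in 4 Maf KO (red, left) and 3 control libraries (blue, right). Points are libraries with their replicate numbers, horizontal bars are means and whiskers are SD, left out for Gpnmb, whose control 2 stood at 14.5 CPM. Flcn, with 171 to 183 CPM in KO and 333 to 375 CPM in control libraries, is among the 8 genes without overlap.

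The labels and the sort were checked first. Maf itself had 28.9, 159, 125 and 37.7 CPM (reads scaled by TMM factors) in KO 1 to 4, against 1664, 2088 and 2147 CPM in controls 1 to 3. Pan-endothelial markers summed to 6465 to 9528 CPM in KO and 11380 to 12710 CPM in control libraries, with 4 of 7 lower. Sinusoidal markers summed to 6586 to 10520 CPM in KO and 27520 to 30940 CPM in control libraries, with 6 of 7 lower. Hepatocyte markers summed to 349 to 1455 CPM in KO and 286 to 308 CPM in control libraries, with 6 of 10 higher, and dissociation stress genes to 9363 to 19060 and 6449 to 8502 CPM, with 4 of 10 higher. Their part in the changes given here was not tested. Summed levels of the other marker lists were, in KO and then control libraries, 74.3 to 228 and 102 to 335 CPM for Kupffer cells and macrophages (of 12, 1 rose and 1 fell), 7.32 to 47.2 and 14.9 to 163 CPM for stellate cells and fibroblasts (4 of 8 fell), and 34.5 to 46.9 and 23.7 to 27.4 CPM for megakaryocytes and platelets (of 6, 4 rose and 1 fell). They were 5.88 to 39.97 and 2.59 to 10.2 CPM for erythroid cells (0 of 5 tested genes called). B cell markers summed to 1.66 to 3.04 and 2.54 to 6.88 CPM (1 of 3 tested genes fell). Monocyte and neutrophil markers summed to 1.95 to 6.40 and 2.51 to 7.11 CPM (0 of 3 tested genes called). T and NK cell markers summed to at most 0.326 and 0.655 CPM, and 0 of these 6 genes passed the filter for testing.

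Tfec encodes the MiT factor best known from macrophages. The gene (ENSMUSG00000029553) spans chromosome 6, 16833373 to 16898441, minus strand; positions here are in GRCm38 and all 10 genes are protein-coding. Tfec had 48.7, 44.8, 41.6 and 38.6 CPM in KO 1 to 4, against 74.7, 67.3 and 64.6 CPM in controls 1 to 3. Every KO library lay below every control. That is 1.59-fold lower, a log2 fold change of -0.67 (SE 0.0975, adjusted p = 0.000709), and 13.2% of genes tested had a lower value. It stayed past the threshold in all 19 alternatives, between -0.78 and -0.40. Summed macrophage markers overlapped between the groups (74.3 to 228 CPM in KO and 102 to 335 CPM in control libraries). Singly, all of them but Marco and Cd68 had negative log2 fold changes, from -1.88 for C1qb to -0.21 for Timd4. Of these only C1qb passed (adjusted p = 0.00225). Cd68 rose (0.97, adjusted p = 0.0417), and Marco did not pass (1.87), with 34.7 CPM in KO 2. The part of macrophage RNA in the Tfec difference was not tested.

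Tfe3 and Tfeb encode the factors through which folliculin and mTORC1 control lysosomal genes in most cells. Tfe3 (chromosome X, 7762560 to 7775202, plus strand) had 78.1, 85.1, 74.8 and 63.7 CPM in KO 1 to 4 and 117, 119 and 103 CPM in controls 1 to 3. The difference was -0.58 in log2 (SE 0.109, adjusted p = 0.00247), with no overlap between groups. Tfeb (chromosome 17, 47737030 to 47792419, plus strand) had the smallest fall of the 8, with 25.3, 28.4, 23.5 and 22.1 CPM in KO 1 to 4 and 33.4, 29.7 and 33.3 CPM in controls 1 to 3. The highest KO library, KO 2, stood just below the lowest control, control 2. Tfeb fell by 0.37 on the log2 scale (SE 0.104, adjusted p = 0.0177). This call was lost in 6 of 19 alternatives, among them without control 1 or control 3 (adjusted p = 0.0602 for each), without KO 1 and KO 4 together (0.0882), under upper-quartile scaling (0.0711) and under library totals (-0.11, adjusted p = 0.390).

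Mitf, the founding member of the family and the master factor of melanocytes, mast cells and osteoclasts, was scarce. On chromosome 6 from 97807052 to 98021349, plus strand, it had 2.51, 2.34, 3.29 and 2.39 CPM in KO 1 to 4, against 3.24, 3.91 and 3.55 CPM in controls 1 to 3. KO 3 lay above control 1, so the groups overlapped. The log2 fold change of -0.44 (SE 0.193) did not pass (adjusted p = 0.0928), and passed without KO 3 (-0.57, adjusted p = 0.0298). These values rest on 71 to 113 counts in KO and 81 to 94 counts in control libraries. Mast cell markers summed to at most 0.0873 CPM in KO and 0.219 CPM in control libraries, with Mcpt4 and Ms4a2 at 0 counts in all 7 libraries. Melanocyte markers summed to 1.53 to 2.95 CPM in KO and 1.36 to 1.93 CPM in control libraries, and of these Tyrp1 had 0 counts in all 7 libraries, and 0 counts allow up to 3, or 0.0873 to 0.132 CPM. The counts are per gene, so the several promoters of Mitf and Tfeb could not be told apart.

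Set per kilobase of exon, so that genes can be compared, the sum of the family was lower in every KO library. The 4 MiT genes together had 22.01, 22.6, 20.2 and 18.1 CPM per kb in KO 1 to 4 and 32.4, 30.8 and 29.1 CPM per kb in controls 1 to 3, without overlap. Tfec made up 35.5 to 39.6% of the summed level in KO and 39.1 to 41.2% in control libraries. Tfe3 made up 39.3 ± 1.30% in KO and 39.7 ± 1.88% in control libraries (SD, n = 4 KO and 3 controls). Both shares overlapped between groups. Tfeb made up 21.1 ± 0.880% in KO and 18.5 ± 1.59% in controls, with every KO library above every control by a narrow margin (20.3% in KO 1, 20.2% in control 3). Mitf held 2.07 ± 0.418% in KO and 1.88 ± 0.234% in controls, with overlap. Tfec and Tfe3 were the leading MiT transcripts in both genotypes, and their levels of 12.3 ± 0.931 and 12.2 ± 0.956 CPM per kb in controls did not differ beyond their spread.

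**Figure D2:**
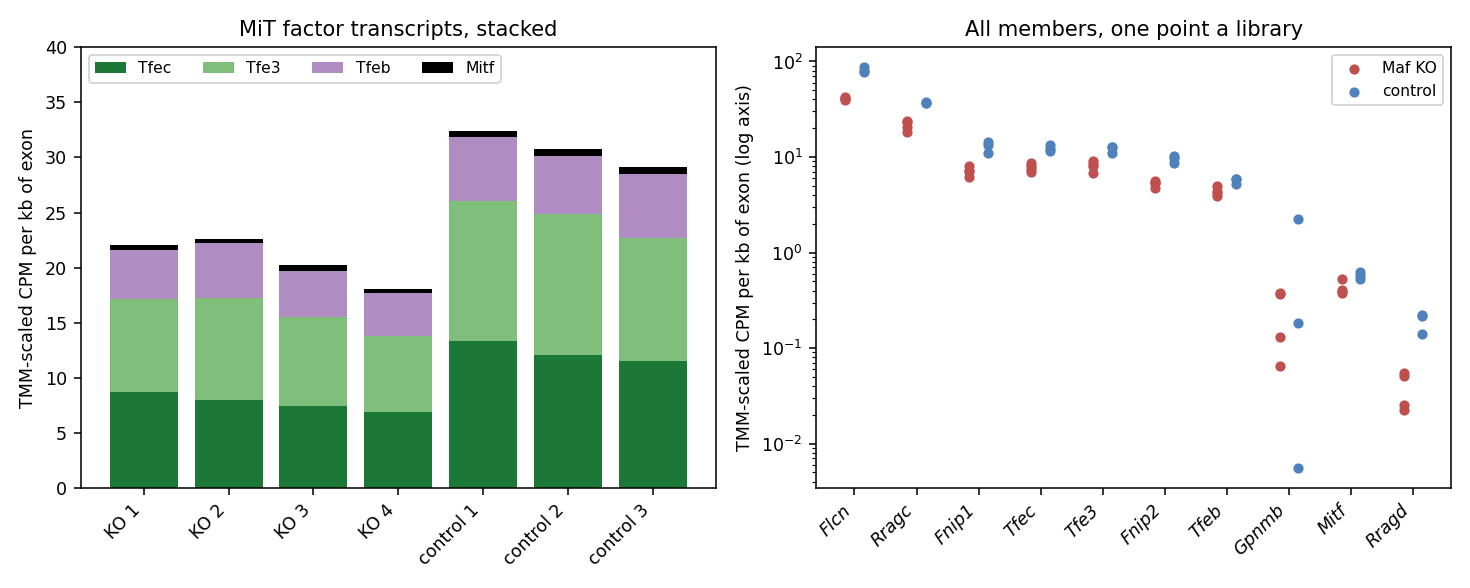
TMM-scaled CPM per kilobase of exon. Left, the 4 MiT genes stacked for each library, KO 1 to 4 and then controls 1 to 3, with sums of 18.1 to 22.6 in KO and 29.1 to 32.4 in control libraries. Right, every library (Maf KO red, control blue) for the 10 genes ordered by control mean on a log axis, from Flcn at 81.3 to Rragd at 0.193 in controls.

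The order of levels in controls, per kilobase, was Flcn at 81.3 ± 4.95, Rragc at 37.2 ± 0.0956, Fnip1 at 13.0 ± 1.73, Tfec, Tfe3, Fnip2 at 9.54 ± 0.844 and Tfeb at 5.67 ± 0.368. Gpnmb (0.804 ± 1.23), Mitf (0.576 ± 0.0544) and Rragd (0.193 ± 0.0451) followed (SD, n = 3). Fnip1, Tfec and Tfe3 lay within each other's spread, and Mitf lay within the wide spread of Gpnmb. In KO libraries Flcn stood at 40.9 ± 1.32 and Rragc at 21.5 ± 2.68, with Tfe3 at 8.14 ± 0.967, Tfec at 7.76 ± 0.776 and Fnip1 at 7.17 ± 0.758 next (SD, n = 4). Exon lengths are those of the annotation's merged exons, and a gene whose long transcripts are unused in these cells is understated.

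Folliculin is the GTPase-activating protein for RagC and RagD, and inherited mutations of its gene cause Birt-Hogg-Dubé syndrome in people. Flcn (chromosome 11, 59791408 to 59810016, minus strand) had 183, 180, 173 and 171 CPM in KO 1 to 4 and 347, 333 and 375 CPM in controls 1 to 3. The KO libraries lay close together and far below every control, and averaged 50.3% of them. This gave a log2 fold change of -0.99 (SE 0.0883, adjusted p = 5.20e-05), and 6.76% of genes tested had a lower one. It stayed past the threshold in all 19 alternatives, between -1.03 and -0.73.

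Fnip1 and Fnip2 encode the paired partners that hold folliculin at the lysosome and bind AMPK. Fnip1 (chromosome 11, 54438199 to 54518235, plus strand) had 51.3, 44.4, 57.6 and 50.7 CPM in KO 1 to 4 and 78.8, 103 and 95.9 CPM in controls 1 to 3. Fnip2 (chromosome 3, 79455974 to 79567796, minus strand) had 44.3, 44.99, 46.4 and 39.6 CPM in KO 1 to 4 and 71.9, 85.4 and 82.0 CPM in controls 1 to 3. Neither gene's groups overlapped. The falls were of nearly the same size, with log2 fold changes of -0.86 (SE 0.116, adjusted p = 0.00046) for Fnip1 and -0.86 (SE 0.0897, adjusted p = 0.000113) for Fnip2. Per kilobase, Fnip1 made up 57.7 ± 2.85% of the pair in KO and 57.6 ± 1.15% in control libraries (SD, n = 4 KO and 3 controls).

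RagC and RagD are the GTPases on which folliculin acts, and they carry TFEB and TFE3 to the lysosome surface. Rragc (chromosome 4, 123917446 to 123936997, plus strand) had 68.2, 78.1, 80.3 and 61.1 CPM in KO 1 to 4 and 124, 124 and 125 CPM in controls 1 to 3. The controls were almost equal and every KO library lay far below them. Rragc thus had a log2 fold change of -0.79 (SE 0.103, adjusted p = 0.000383). KO 2 and KO 3, the KO libraries with more Maf left (159 and 125 CPM), were the higher in Rragc, and the link was not tested. Of the Rragc exons 7.9% share bases with an annotated antisense gene that had 5 counts over all libraries, and no other gene of the 10 shared exon bases with another annotated gene.

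Rragd was near the limit of detection. It passed the filter of 0.343 CPM in 0 KO and 3 control libraries, so it entered the test only through the group where it was high. Rragd (chromosome 4, 32983037 to 33022180, plus strand) had 0.283, 0.130, 0.116 and 0.266 CPM in KO 1 to 4, from 8, 4, 4 and 9 counts, against 0.728, 1.124 and 1.14 CPM in controls 1 to 3, from 20, 27 and 26 counts. No KO library reached a control. Its log2 fold change was -2.31 (SE 0.387, adjusted p = 0.00145). KO 1 and KO 4, highest in hepatocyte markers (1455 and 681 CPM), were also highest in Rragd among the KO, and the part of hepatocyte RNA was not tested. Per kilobase Rragc made up 99.8 ± 0.100% of the pair in KO and 99.5 ± 0.120% in control libraries (SD, n = 4 KO and 3 controls).

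The promoter windows of Fnip1, Fnip2 and Rragc are shown because they hold sequences of the kind that MiT factors bind, or share a run of bases. The windows, from RefSeq on GRCm38.p6, run from 250 bases before to 50 bases after an annotated start and read 5′ to 3′ along the gene. Capitals mark the motif TCACGTG, here on the reverse strand as CACGTGA, which contains the E-box CACGTG, and the run GTCATATGAC, which reads the same on both strands.
Fnip1, chr11:54437929-54438228, plus strand: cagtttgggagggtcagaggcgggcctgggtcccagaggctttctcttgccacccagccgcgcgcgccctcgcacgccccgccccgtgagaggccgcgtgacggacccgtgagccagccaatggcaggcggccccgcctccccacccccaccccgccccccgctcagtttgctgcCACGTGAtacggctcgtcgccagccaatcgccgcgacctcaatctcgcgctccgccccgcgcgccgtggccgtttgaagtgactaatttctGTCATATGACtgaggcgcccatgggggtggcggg
Fnip2, chr3:79567630-79567929, minus strand: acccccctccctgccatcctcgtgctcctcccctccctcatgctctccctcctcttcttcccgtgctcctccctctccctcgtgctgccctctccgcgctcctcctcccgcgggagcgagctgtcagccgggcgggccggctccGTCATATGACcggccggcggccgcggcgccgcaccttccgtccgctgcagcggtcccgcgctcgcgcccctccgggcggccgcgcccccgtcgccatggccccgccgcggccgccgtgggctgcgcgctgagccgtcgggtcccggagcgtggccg
Rragc, chr4:123917183-123917482, plus strand: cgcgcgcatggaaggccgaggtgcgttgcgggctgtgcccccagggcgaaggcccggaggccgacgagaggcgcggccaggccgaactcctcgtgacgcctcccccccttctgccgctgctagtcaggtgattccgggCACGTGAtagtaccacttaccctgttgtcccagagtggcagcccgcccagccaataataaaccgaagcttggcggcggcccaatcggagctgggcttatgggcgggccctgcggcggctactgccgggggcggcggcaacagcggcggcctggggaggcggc

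CACGTGA began at position -75 in the Fnip1 window and at -112 in the Rragc window, counted from the annotated start. All 10 genes matched, with 15 windows in all, and these were the only TCACGTG matches among them on either strand. Of all 32851 windows 3.77% held TCACGTG and 7.15% held CACGTG. By gene, TCACGTG was in 2 of the 10, beside 4.29% of all genes. It was also in 3 of the 7 partners of RagC and RagD, listed below, that had a window. The run GTCATATGAC was the longest that the Fnip1 and Fnip2 windows shared, at 10 bases, and began at 16 in Fnip1 and at -106 in Fnip2. It was looked for after the sequences were seen, and 14 of all windows (0.0426%) held it. TCATGTG, the core of the M-box of melanocyte genes, was in 3.77% of all windows and in none of the 15. A single arm of the Maf recognition element, TGCTGAC, was in 4.67% of all windows and among the 10 genes only in windows of Mitf, on the plus strand of window 1 at -222 and the reverse strand of window 2 at -236. A match is a description of these letters and not a site of binding.

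Gpnmb, a glycoprotein of lysosome-rich macrophages and melanocytes and a common readout of MiT activity, was set by single libraries. Gpnmb (chromosome 6, 49036546 to 49070929, plus strand) had 0.425, 2.44, 0.844 and 2.39 CPM in KO 1 to 4, from 12, 75, 29 and 81 counts, against 0.0364, 14.5 and 1.184 CPM in controls 1 to 3, from 1, 348 and 27 counts. The groups overlapped and the controls spanned the whole range. The log2 fold change of -1.77 (SE 1.15) did not pass (adjusted p = 0.236), and without control 2 it was 1.36 (adjusted p = 0.336). Control 2 also had the highest summed macrophage markers of all libraries, 335 CPM, and their part in the Gpnmb values was not tested.

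**Figure D3:**
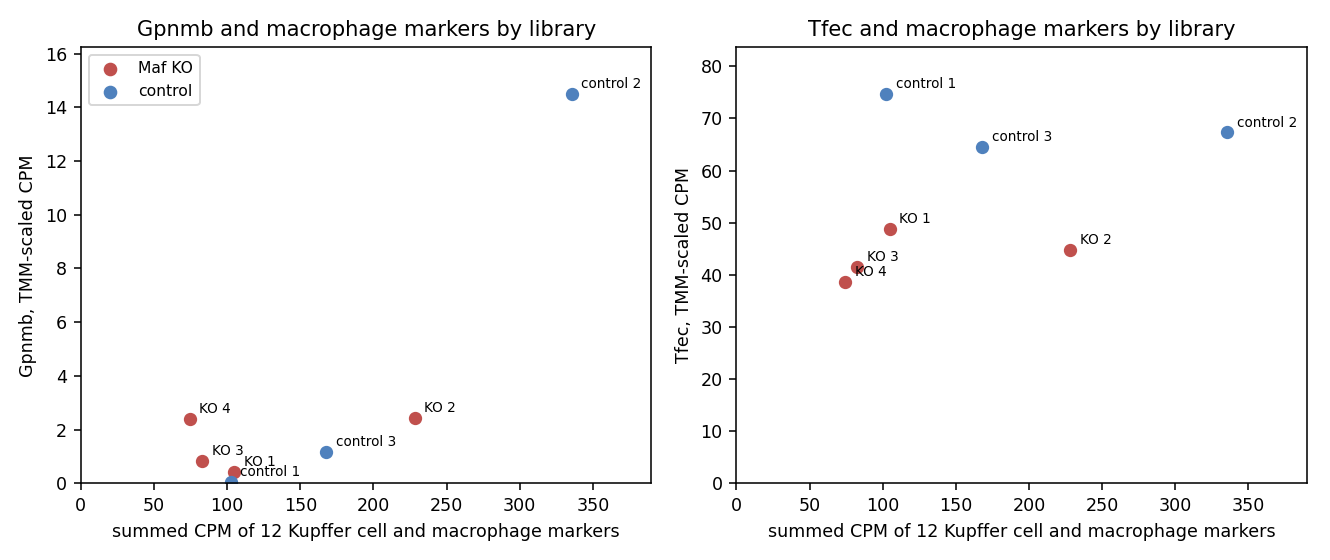
TMM-scaled CPM of Gpnmb (left) and Tfec (right), vertical axes from 0, against the summed CPM of 12 Kupffer cell and macrophage markers, with a point for each Maf KO (red) and control (blue) library. Control 2 stands apart with 14.5 CPM of Gpnmb at a sum of 335 CPM, and Tfec lies at 38.6 to 48.7 CPM in KO and 64.6 to 74.7 CPM in control libraries.

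Among 7 tested partners of RagC and RagD at the lysosome, 2 fell and 1 rose, beside 22.2% and 23.0% of all genes tested. Rraga, the RagA GTPase that pairs with RagC or RagD, had 59.8 ± 3.77 CPM in KO and 59.8 ± 3.80 CPM in control libraries (SD, n = 4 KO and 3 controls; adjusted p = 0.9995), and passed as a rise with library totals (0.26, adjusted p = 0.0181). Its value was looked at after the others were seen. Lamtor1, the membrane anchor of the Ragulator complex, fell to 59.2 ± 6.75 CPM in KO, against 104 ± 2.78 CPM in control libraries (SD, n = 4 KO and 3 controls; log2 fold change -0.82, adjusted p = 0.000234). Lamtor3, another Ragulator subunit, had a log2 fold change of -0.23 (adjusted p = 0.045), lost in 13 of 19 alternatives, among them without control 2, control 3, KO 2 or KO 4 (0.0793 to 0.172), and 0.04 with library totals. Slc38a9, the lysosomal arginine sensor, rose to 43.6 ± 5.70 CPM in KO, against 25.7 ± 1.87 CPM in control libraries (log2 fold change 0.76, adjusted p = 0.000889). Rragb, the close relative of Rraga, was not tested, with 0.00884 CPM in KO and 0.0285 CPM in control libraries.

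Among 17 tested of 18 listed genes of the GATOR and KICSTOR complexes and their amino acid sensors 4 rose and 4 fell, or 23.5% each, which is near the 23.0% and 22.2% of all genes tested. Wdr59 of GATOR2 fell to 67.2 ± 6.24 CPM in KO, against 156 ± 23.4 CPM in control libraries (log2 fold change -1.21, adjusted p = 8.60e-05). Castor2, of the CASTOR proteins, and the sestrin gene Sesn1 had log2 fold changes of -0.83 and -0.38 (adjusted p = 0.00325 and 0.00742). Castor1, the other CASTOR gene, did not pass (0.057, adjusted p = 0.838). Sesn1 lost its call with library totals (0.218), without KO 1 and KO 4 together (0.0544) and without KO 1 and KO 2 together (0.0776). The sestrin genes Sesn2 and Sesn3 rose, with log2 fold changes of 0.69 and 0.75 (adjusted p = 0.000457 and 0.00578). Nprl2 of GATOR1 had 0.41 (adjusted p = 0.0316), a call that held in 11 of 19 alternatives. Among others, Nprl2 did not pass without control 2, control 3, KO 1, KO 2 or KO 4 (0.0554 to 0.134). Rises numbered 2 without control 2, control 3, KO 1, KO 2 or KO 4, and 10 with library totals.

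Among the 9 genes of mTORC1 and its TSC brake 4 fell and 2 rose, beside 22.2% and 23.0% of all genes tested. Rptor, which recruits mTORC1 to the Rags, had 42.9 ± 2.14 CPM in KO and 62.8 ± 4.54 CPM in control libraries (log2 fold change -0.55, adjusted p = 0.000736). Tsc1 and Tsc2 had log2 fold changes of -0.37 and -0.34 (adjusted p = 0.0052 and 0.00883), neither past the threshold with upper-quartile factors (0.0523 and 0.0518) or library totals (0.391 and 0.468). Tsc1 held its call in 17 of 19 alternatives and Tsc2 in 15. Deptor, an inhibitor of mTOR, rose 1.79-fold (adjusted p = 0.00103) and Mlst8, a shared mTOR subunit, 1.35-fold (adjusted p = 0.0187). The Mlst8 call held in 13 of 19 alternatives. Among others, it was lost without control 1, control 2 or KO 2 (0.0525 to 0.0751), leaving 1 rise. With library totals 4 of the 9 genes rose and 1 fell.

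Of 14 genes whose products move MiT factors between cytoplasm and nucleus, 6 fell and 2 rose, beside 22.2% and 23.0% of all genes tested. Of calcineurin, the phosphatase that frees TFEB for the nucleus, the genes Ppp3ca and Ppp3r1 fell to 111 ± 25.3 and 48.6 ± 7.45 CPM in KO, against 206 ± 3.00 and 80.2 ± 4.50 CPM in control libraries (log2 fold changes -0.89 and -0.72, adjusted p = 0.00195 and 0.00134). The calcineurin genes Ppp3cb and Ppp3cc did not pass (log2 fold changes -0.00057 and 0.084, adjusted p = 0.996 and 0.629). The kinase gene Gsk3b had a log2 fold change of -0.48 (adjusted p = 0.00512), which did not pass with library totals (0.0624). The 14-3-3 gene Ywhah, of the proteins that hold phosphorylated TFEB in the cytoplasm, and the export receptor gene Xpo1 rose 1.32- and 1.25-fold (adjusted p = 0.00839 and 0.0123), and Xpo1 did not pass without control 3 (0.0612) or in lane 5 alone (0.106), each of which left 1 rise. Xpo1 held its call in 15 of 19 alternatives, and Ywhah in 18, all but that without KO 1 and KO 2 together (0.0504). The 14-3-3 genes went different ways. Ywhab and Ywhaq fell (log2 fold changes -0.42 and -0.41, adjusted p = 0.0471 and 0.0305), and Ywhae, Ywhag and Ywhaz did not pass. The calls of Ywhab and Ywhaq were not followed singly in the alternatives. Falls of the list numbered 3 without control 1, 4 without control 2, control 3, KO 1, KO 2 or KO 4, and 7 without KO 3. With library totals they numbered 2.

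Of 36 listed CLEAR targets, chosen with earlier results of these data known, 34 were tested. Of these 33 fell and 0 rose, beside 22.2% and 23.0% of all genes tested, a contrast that is a description. Their median log2 fold change was -0.744, beside 0.0433 for all genes. The sets were 6 of 6 tested subunits and accessory proteins of the proton pump (-1.43 to -0.48), 16 of 16 hydrolases and activators (-1.89 to -0.44), 5 of 6 lysosomal membrane proteins and 6 of 6 genes of autophagy and trafficking (-0.65 to -0.29). The acid glucosidase gene Gaa fell to 113 ± 20.4 CPM in KO, against 296 ± 10.8 CPM in control libraries (SD, n = 4 KO and 3 controls; adjusted p = 8.20e-05). Hexa, of the hexosaminidase that clears gangliosides, fell 2.65-fold, and the peptidase gene Tpp1 2.54-fold (adjusted p = 8.60e-05 and 9.24e-05).

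Ctsd, the aspartic protease cathepsin D, named after its value was seen as the largest fall of the list, had 108, 190, 214 and 133 CPM in KO 1 to 4 and 630, 602 and 557 CPM in controls 1 to 3. Mcoln1, the calcium channel that activates calcineurin at the lysosome and likewise named afterwards, had a log2 fold change of -0.36 (adjusted p = 0.00889). This call held in 16 of 19 alternatives and was lost, among others, with upper-quartile factors (0.0654) and library totals (0.434). Cd63 was the gene that did not pass, with 19.2 ± 2.18 CPM in KO and 11.8 ± 6.75 CPM in control libraries (adjusted p = 0.137), and passed as a rise without control 2 (1.13, adjusted p = 0.042) and with library totals (0.97, adjusted p = 0.0435). With library totals 25 CLEAR genes fell and 1 rose. Without KO 1 and KO 4 together, or KO 1 and KO 2 together, 30 fell. Of the CLEAR genes 27 had a promoter window, and 13 of these held TCACGTG, where 4.29% of all genes did. The list is known by that motif, so the share is no separate observation.

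**Figure D4:**
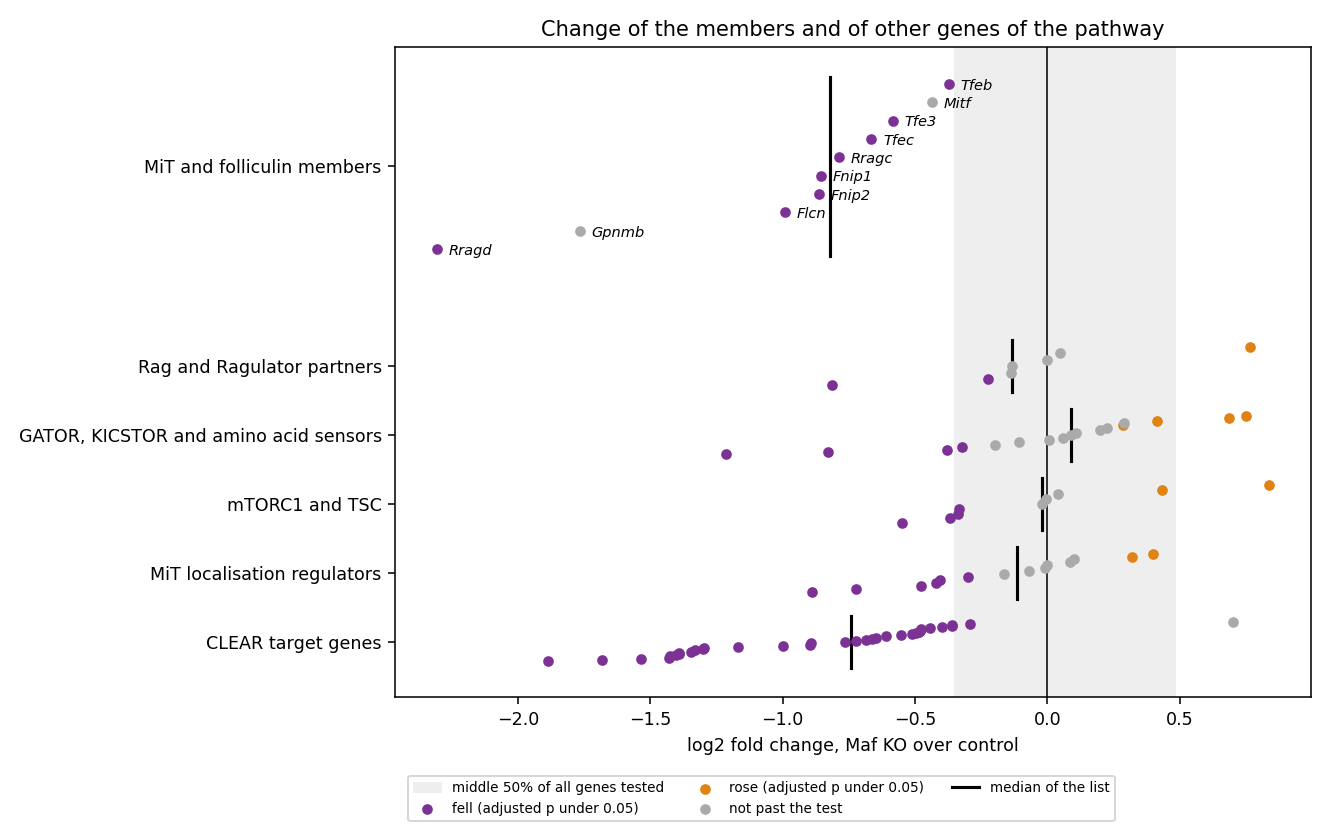
Log2 fold changes, Maf KO over control, of the 10 genes (labelled) and of 5 lists of the pathway, a point for each tested gene, purple where it fell, orange where it rose and grey where it did not pass. Vertical black marks are list medians, -0.823 for the 10 genes and -0.744 for the CLEAR targets, and the grey band is the middle 50% of all genes tested, -0.35 to 0.48.

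By likeness of pattern, the genes closest to Tfec over the 7 libraries were Rusc2, Anks6 and Pgm1 (Pearson r of log2 CPM over n = 7, 0.996, 0.989 and 0.988). Those closest to Tfeb were Klhl15, Plekhf1 and Crlf3 (0.996, 0.990 and 0.982), and those closest to Tfe3 were Ackr1, Slc16a1 and Commd7 (0.993, 0.993 and 0.991). Lrrk2, Wnk1 and Utrn were closest to Mitf (0.990 each). The libraries fall into both genotypes and share their scaling, so these values are descriptions and carry no p.

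**Figure D5:**
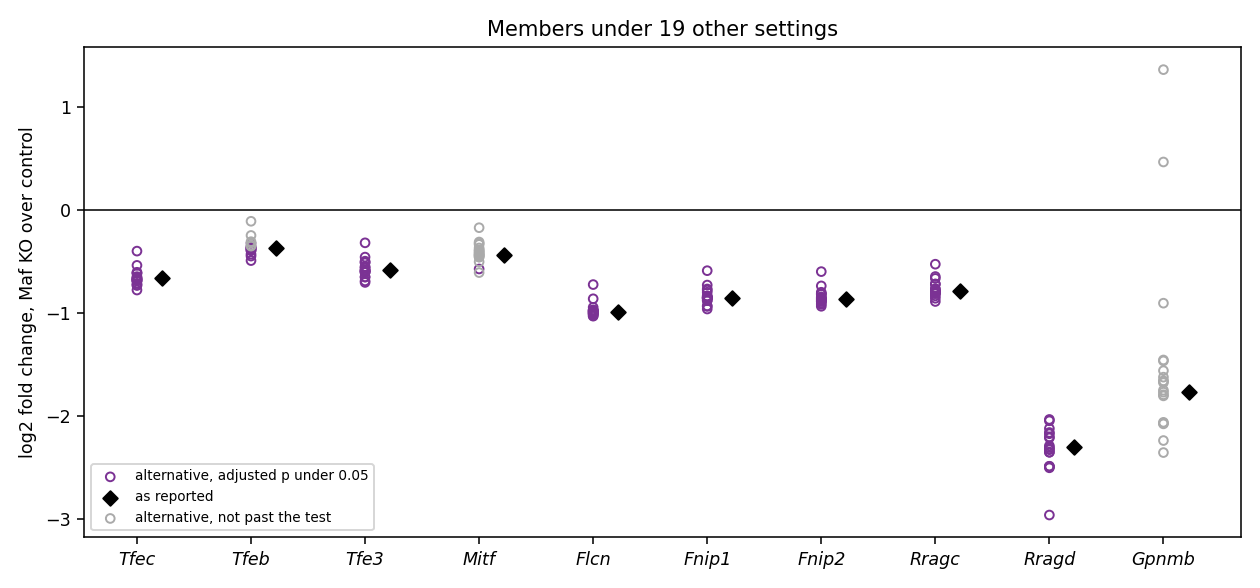
Log2 fold changes, Maf KO over control, of the 10 genes under 19 other settings (circles, purple at adjusted p under 0.05 and grey otherwise) and as reported (black diamonds). Tfec, Tfe3, Flcn, Fnip1, Fnip2, Rragc and Rragd stayed below 0 and past the threshold wherever tested, Tfeb lost its call in 6 settings, and Gpnmb ran from -2.36 to 1.36.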

How the data were processed

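Polyadenylated RNA of sorted liver endothelium was measured in 4 Maf KO and 3 control libraries, grouped by the labels' titles. The authors deposited unnormalized counts for Ensembl IDs; the submitters' processing notes name FastQC 0.11.5, STAR 2.7.6a and build GRCm38. The sources used here give no counting tool, annotation or strand setting, and the labels' protocols name an unstranded and a stranded TruSeq kit without saying which was used, so antisense overlaps are uncertain. Of 52636 IDs 52403 matched a symbol; coordinates and exon lengths come from GENCODE mouse release M21 on the same build.

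Low genes were removed by filterByExpr of edgeR 4.0.16 under R 4.3.3 (minimum count 10, minimum total 15), the rest scaled by TMM and tested by edgeR's quasi-likelihood F-test without covariates. Standard errors were taken as |log2 fold change| over the root of F. CPM are TMM-scaled, with mean ± SD over libraries, and total counts of 24772716 to 32960007 set their precision. A count of 0 allows 3 counts, for counting error only. Libraries within a group all differed by more than sampling noise (chi-square over its degrees of freedom 14.5 to 106.5). The test was tried on simulated counts.

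Named were the 10 genes, Maf, up to 3 genes per list and direction of lowest p among called genes, and for each MiT factor the 3 genes with the highest Pearson r (log2 CPM, prior count 2, average at least 3, predicted names left out). The members and lists were chosen with earlier results of these data known. Alternatives were other scalings, filters, DESeq2 1.42.0, limma-voom (limma 3.58.1), the sequencing lane in the file descriptions as a covariate, lane 5 by itself (lane 4 held 1 library of each group, so no test was possible in it), a block for the replicate number, and left-out libraries.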

Additional observations from a re-analysis of the deposited data

How the results depend on the processing

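Of the 10 genes 7 to 9 fell and 0 rose in all 19 alternatives, and in fits without single libraries likewise 7 to 9. Over these fits 180 of 189 member values kept their direction and side of the threshold. Gpnmb changed sign without control 2 (1.36; lowest without a single library -2.36) and with limma-voom (0.47), and Lamtor3 with library totals (0.0395); the cause was not tested. Rraga, at -9.16e-05, had 0.13 with upper-quartile factors, 0.26 with library totals, 0.0168 with no filter, 0.00818 with the replicate block, 0.0599 without KO 1 and KO 4 together and -0.0486 to 0.0456 without single libraries. Of 494 values for 26 other named genes 439 kept direction and side.

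CLEAR falls ranged from 25 to 33, and rises from 0 to 1 without single libraries. With library totals, all genes had 6373 rises and 1976 falls, Rag and Ragulator partners 2 rises and 1 fall, GATOR, KICSTOR and sensors 10 and 2, mTORC1 and TSC 4 and 1, localisation regulators 6 and 2, and CLEAR targets 1 rise. With upper-quartile factors falls were 1 for Rag partners, 2 for mTORC1 and TSC and 3 for localisation regulators. Rag partners had 1 fall also with no filter, limma-voom, the lane as covariate and lane 5 alone, where localisation regulators had 1 rise. Fits chosen after seeing the data, without KO 1 and KO 4 together and without KO 1 and KO 2 together, gave 2234 and 2313 rises over all genes. Both gave 1 fall for Rag partners, 2 rises and 2 falls for GATOR, KICSTOR and sensors, 1 rise for mTORC1 and TSC, and 1 rise and 3 falls for localisation regulators. Without KO 1 and KO 2, mTORC1 and TSC had 2 falls.

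Without single libraries the counts ran from 2379 to 3769 rises and 2584 to 3930 falls over all genes, 1 to 2 falls for Rag partners with 1 rise throughout, 2 to 5 rises and 3 to 5 falls for GATOR, KICSTOR and sensors, 1 to 2 rises and 4 falls for mTORC1 and TSC, 1 to 2 rises and 3 to 7 falls for localisation regulators and 32 to 33 falls for CLEAR targets.

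The replicate numbers showed no clear pairing of the libraries. Deviations from the group means correlated at -0.0133, 0.162 and 0.0674 for numbers 1 to 3. Control 1 correlated best with KO 4 (0.0505), control 2 with KO 2 (0.162) and control 3 with KO 1 (0.0781). Values this weak can neither show nor exclude a pairing. With the replicate number as a block, in which KO 4 has no partner and so carries no weight in the comparison, 7 of the 10 genes fell, Tfeb not passing (-0.32, adjusted p = 0.0896). The block gave 2542 rises and 2627 falls over all genes, 1 fall for Rag partners, 2 rises for GATOR, KICSTOR and sensors, 1 rise for mTORC1 and TSC, 1 rise and 3 falls for localisation regulators and 29 falls for CLEAR targets. Rragd was left out by the stricter filter (1 CPM in 4 libraries). Depth limits Rragd, Mitf and Gpnmb, with as few as 4, 71 and 1 counts in a library.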

Other observations

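Genes around the folliculin arm were listed after its results were known, so their values are descriptions. AMPK, the energy sensor that the FNIP proteins bind, had 6 of 7 subunits tested. Of these 1 rose and 1 fell, beside 23.0% and 22.2% of all genes tested. Prkag2 rose to 11.8 ± 1.53 CPM in KO, against 6.29 ± 0.499 CPM in control libraries (SD, n = 4 KO and 3 controls; edgeR adjusted p = 0.000989), and the catalytic subunit gene Prkaa1 fell to 51.0 ± 4.06 CPM in KO, against 61.8 ± 1.85 CPM in control libraries (adjusted p = 0.0236). In the complex of C9orf72, Smcr8 and Wdr41, which is related in fold to folliculin and FNIP, 1 of 3 fell, beside 22.2% of all genes tested. The gene was Smcr8, with 33.1 ± 5.03 CPM in KO and 47.0 ± 4.40 CPM in control libraries (adjusted p = 0.0123).

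Of 12 other factors that bind CACGTG-type sequences 3 rose and 6 fell, beside 23.0% and 22.2% of all genes tested. The clock factor genes Arntl and Clock fell, with log2 fold changes of -0.72 and -0.49 (edgeR adjusted p = 0.000186 and 0.00653). Srebf1 rose and Srebf2 fell, the pair that drives lipid and sterol synthesis, with log2 fold changes of 0.39 and -0.73 (adjusted p = 0.013 and 0.000847). Usf1, Max and Mlx did not pass.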
